A study of Mus musculus with 9 samples.

Results

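The genes described here are 9 transcription factors of blood cell development and of myeloid cells, *Spi1*, *Lyl1*, *Runx1*, *Runx3*, *Ikzf1*, *Cebpa*, *Cebpb*, *Batf* and *Batf3*, found by symbol among 18349 genes listed for mouse iris. All 9 were tested. They were chosen by name and function, not by a threshold on expression, but with earlier results of these data known. All mice were C57BL/6J. Iris RNA was sequenced in 9 libraries, 3 for every one of 3 groups, from pools of 3 irises collected at 10 weeks of age. In both injured groups, sodium hydroxide (1 M, 0.5 μL) was held on the cornea for 60 seconds at 6 weeks, and the Sham group received PBS instead. The Sham group and the injured *VEGFR3*fl/fl group carried floxed *VEGFR3* (gene symbol *Flt4*) without Cre. The injured *VEGFR3*iLECko group carried the same floxed gene with CreERT2 driven by *Prox1*, a gene of lymphatic endothelium, so that no gene described here was the target of the deletion. Tamoxifen was given at 80 mg/kg on days 13 to 17 after injury, to floxed littermates without Cre as well. Total counts per library were between 16617187 and 18306359.

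Transcription factors of this kind fix which genes a blood cell can use. PU.1 (the product of *Spi1*) and C/EBPα (*Cebpa*) together direct progenitors toward monocytes, macrophages and granulocytes, RUNX1 acts from the origin of blood stem cells onward, and LYL1 is a basic helix-loop-helix factor of stem cells and progenitors that binds DNA with E proteins. Ikaros (*Ikzf1*) and RUNX3 are best known from lymphocytes, C/EBPβ is induced by inflammatory signals in many cell types, and BATF and BATF3 are small AP-1 factors that work with JUN proteins and with IRF4 or IRF8. Resident macrophages and dendritic cells are the main immune cells described in the healthy anterior uveal tract, which includes the iris. In bulk tissue, fewer cells of a type and less RNA per cell cannot be told apart.

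The targeted gene was examined first. Sham libraries held 13.4 to 15.6 CPM of *Flt4*, injured *VEGFR3*fl/fl libraries 16.8 to 23.0 CPM and those labelled *VEGFR3*iLECko 21.0 to 27.9 CPM, where CPM is the count normalized to library size by edgeR's TMM method, so *Flt4* was not lower in the latter (log2 fold change 0.34 against injured *VEGFR3*fl/fl, SE 0.15, edgeR adjusted p = 0.20). Reads outside the deleted exons, and reads from cells without Cre, are counted as well, so this level cannot decide on the labels. The 4 Y-linked genes examined summed to 51.1, 82.3 and 167 CPM in the Sham libraries, to 151, 136 and 0.804 CPM among those of injured *VEGFR3*fl/fl and to between 0.736 and 1.11 CPM where the label was *VEGFR3*iLECko. The third injured *VEGFR3*fl/fl library and all 3 libraries labelled *VEGFR3*iLECko therefore stood apart from the other injured libraries in this respect. By this measure the injured pools differed in sex as well as in label, and outside that 1 injured *VEGFR3*fl/fl library sex and label cannot be told apart in any difference between the injured groups, those of *Lyl1* and *Cebpa* included.

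Promoters were available from RefSeq (GRCm38.p6, the build of mm10) for 8 of the 9 genes, with 11 starts in all, and cover 250 bases before to 50 bases after each start. Those of *Lyl1* and *Cebpa* are shown because these genes differed between the injured groups, and those of *Runx1* and *Runx3* because both genes start at a pair of distant sites, which gene-level counts do not separate. Each line holds the 250 bases before the start, from 5′ to 3′ on the strand of the gene, with matches to the motifs searched in capitals.
Lyl1, chr8:84701207-84701456, + strand: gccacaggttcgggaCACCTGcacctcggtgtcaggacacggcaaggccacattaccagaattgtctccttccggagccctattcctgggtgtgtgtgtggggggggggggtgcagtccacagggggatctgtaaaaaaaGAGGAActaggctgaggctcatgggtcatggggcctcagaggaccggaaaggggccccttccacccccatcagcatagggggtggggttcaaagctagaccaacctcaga
Cebpa, chr7:35119043-35119292, + strand: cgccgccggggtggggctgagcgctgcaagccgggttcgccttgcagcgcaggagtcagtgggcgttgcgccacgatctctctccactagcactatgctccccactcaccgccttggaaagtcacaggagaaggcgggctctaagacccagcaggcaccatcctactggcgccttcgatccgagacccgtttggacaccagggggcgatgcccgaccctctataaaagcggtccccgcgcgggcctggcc
Runx1 distal start, chr16:92826075-92826324, - strand: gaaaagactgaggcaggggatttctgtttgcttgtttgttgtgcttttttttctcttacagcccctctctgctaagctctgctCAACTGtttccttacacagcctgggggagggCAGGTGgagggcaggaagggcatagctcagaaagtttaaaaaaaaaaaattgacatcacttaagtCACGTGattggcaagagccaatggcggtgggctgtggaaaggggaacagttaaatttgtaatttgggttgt
Runx1 proximal start, chr16:92697330-92697579, - strand: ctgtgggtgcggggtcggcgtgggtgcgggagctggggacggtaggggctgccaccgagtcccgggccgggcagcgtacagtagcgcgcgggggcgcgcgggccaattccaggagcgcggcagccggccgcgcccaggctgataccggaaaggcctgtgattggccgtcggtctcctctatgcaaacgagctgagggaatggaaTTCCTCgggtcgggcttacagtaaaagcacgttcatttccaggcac
Runx3 distal start, chr4:135120395-135120644, + strand: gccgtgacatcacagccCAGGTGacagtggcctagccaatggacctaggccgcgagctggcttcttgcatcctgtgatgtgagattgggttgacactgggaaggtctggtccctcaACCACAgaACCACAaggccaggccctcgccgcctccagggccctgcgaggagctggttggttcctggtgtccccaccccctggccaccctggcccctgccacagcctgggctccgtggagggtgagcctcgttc
Runx3 proximal start, chr4:135152295-135152544, + strand: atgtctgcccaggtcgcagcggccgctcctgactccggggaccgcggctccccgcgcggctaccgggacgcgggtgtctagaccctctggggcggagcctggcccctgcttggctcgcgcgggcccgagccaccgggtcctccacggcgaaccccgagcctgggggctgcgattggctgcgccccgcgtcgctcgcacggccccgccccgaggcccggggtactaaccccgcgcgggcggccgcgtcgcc

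The motifs searched on both strands were GAGGAA for PU.1 and other ETS factors, TGTGGT for RUNX, TTGC followed by any 2 bases and AA for C/EBP, TGANTCA for AP-1 and CANNTG for the E-box of helix-loop-helix factors. The capitals in the *Lyl1* line are an E-box and the ETS letters, at 235 and 110 bases before the start. In the distal *Runx3* promoter a pair of RUNX matches on the reverse strand lies 134 and 126 bases before the start, and in the distal *Runx1* promoter another such pair lies 29 and 37 bases after the start, beyond the bases shown. The capitals in the *Runx1* lines are 3 E-boxes at the distal start and 1 ETS match at the proximal start. No match lies in the bases shown for *Cebpa* or for the proximal *Runx3* start, and matches did not overlap one another. The *Lyl1* start of the promoter table lies within the interval of the gene, which begins at 84701423. Over the full windows of 300 bases, ETS letters were present in 3 of 11 promoters of these genes and in 28.3% of 32851 promoters of the table, RUNX letters in 3 of 11 and 16.8%, E-boxes in 7 of 11 and 72.3%, C/EBP letters in 0 of 11 and 10.8%, and AP-1 letters in 0 of 11 and 7.8%. These are matches of letters in these windows only.

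To learn how the injury changed these genes, injured *VEGFR3*fl/fl irises were compared with Sham. All 9 genes rose, by 5.51-fold (*Lyl1*) to 20.7-fold (*Runx3*), where a gene was called when it changed more than 1.5-fold with an adjusted p under 0.05. In every one of them the 3 injured libraries lay above the 3 Sham libraries. Among the 15010 genes tested, 22.1% were called higher in this comparison and 33.9% had no overlap between the groups in that direction. Over the 9 genes the median change was 2.66 on the log2 scale, against 0.01 over all genes tested. Values per library are given as CPM in the order of replicates 1 to 3. The edgeR p-values rest on a spread between pools of irises estimated over all 9 libraries in 1 fit. Replicates were closer in Sham (chi-square per degree of freedom 5.13 to 11.2) than in injured *VEGFR3*fl/fl (26.7 to 76.2) or injured *VEGFR3*iLECko (17.4 to 27.9). Those p-values between the injured groups therefore do not measure the spread of the injured pools alone.

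**Figure D1:**
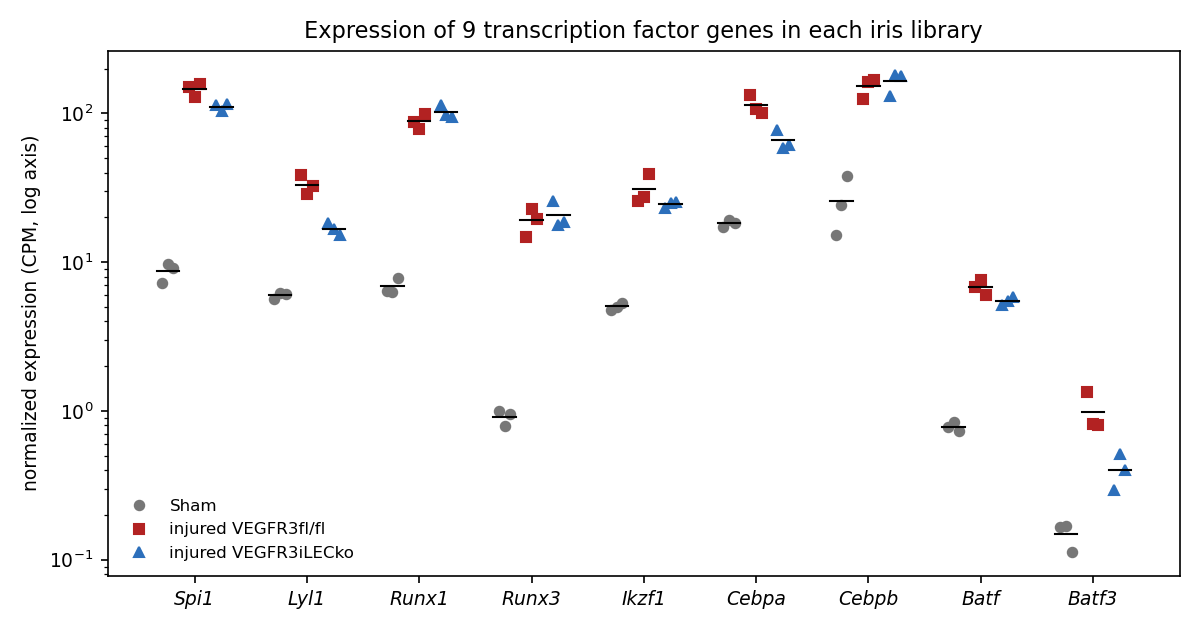
Normalized expression (CPM, log axis) of the 9 genes in each of the 9 libraries, with a point per library, grey circles for Sham, red squares for injured VEGFR3fl/fl, blue triangles for injured VEGFR3iLECko and a black bar at the mean of 3. Every gene lies higher in the injured libraries than in Sham, and Lyl1 (15.3 to 18.2 CPM against 28.5 to 38.3 CPM) and Cebpa (58.6 to 77.8 CPM against 100 to 133 CPM) lie lower in the libraries labelled VEGFR3iLECko than in the injured VEGFR3fl/fl libraries.

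*Spi1* (NCBI Gene ID 20375, chr2:91082374-91115759) was at 7.26, 9.66 and 9.18 CPM in Sham and at 150, 129 and 158 CPM in injured *VEGFR3*fl/fl. Its product PU.1 is the ETS factor without which macrophages do not form. The groups were far apart, with a log2 fold change of 4.07 (SE 0.13, edgeR quasi-likelihood adjusted p = 4.87e-08, 16.7-fold). *Cebpa* (ID 12606, chr7:35119293-35121928) was at 17.2, 19.1 and 18.4 CPM in Sham and rose to 133, 107 and 100 CPM, a log2 fold change of 2.64 (SE 0.14, adjusted p = 8.21e-07). Its Sham libraries were close together and all injured libraries lay above them. *Cebpb* (ID 12608, chr2:167688915-167690432) was at 15.2, 24.2 and 38.1 CPM in Sham, a 2.51-fold spread within the group and the widest of the 9 genes there, and at 124, 163 and 168 CPM after injury. It rose by 2.55 on the log2 scale (SE 0.30, adjusted p = 8.1e-05). The exons of *Cebpb* overlap those of *Tmem189* on the opposite strand over 312 bases, and whether the counting used strand is not given in the sources used here. *Tmem189* was at 90.9 to 107 CPM over all 9 libraries.

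*Runx1* (ID 12394, chr16:92601466-92826074) was at 6.37, 6.33 and 7.88 CPM in Sham and at 87.8, 78.9 and 98.5 CPM in injured *VEGFR3*fl/fl, a 12.9-fold rise (log2 fold change 3.69, SE 0.13, adjusted p = 8.89e-08). *Runx3* (ID 12399, chr4:135120645-135177990), the family member that directs cytotoxic T cells and is also found in NK and dendritic cells, was hardly present in Sham, with 18, 14 and 17 counts. Its injured libraries had 244, 390 and 341 counts, or 14.8, 22.8 and 19.6 CPM, and its log2 fold change of 4.37 (SE 0.24, adjusted p = 9.21e-07) was the largest among the 9 genes. *Lyl1* (ID 17095, chr8:84701423-84704716) rose from 5.65, 6.16 and 6.14 CPM to 38.3, 28.5 and 32.3 CPM, a log2 fold change of 2.46 (SE 0.13, adjusted p = 6.86e-07). Replicates of *Lyl1* in Sham differed by no more than 1.09-fold.

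*Ikzf1* (ID 22778, chr11:11684962-11772930) was at 4.76, 5.03 and 5.35 CPM in Sham and at 25.8, 27.6 and 39.0 CPM after injury, with the third injured library the highest. This was a log2 fold change of 2.61 (SE 0.16, adjusted p = 1.74e-06). *Batf* (ID 53314, chr12:85686720-85709087), needed for several activated lymphocyte types, went from 0.775, 0.847 and 0.732 CPM to 6.80, 7.55 and 6.03 CPM (log2 fold change 3.10, SE 0.19, adjusted p = 1.53e-06). *Batf3* (ID 381319, chr1:191098414-191108943), needed for the cDC1 type of dendritic cell, was the least expressed, with 3, 3 and 2 counts in Sham and 22, 14 and 14 counts after injury. Because every Sham library had 3 counts or fewer, its change is given as the ratio of summed counts scaled to library size, which was 6.56 (exact binomial 95% interval 3.09 to 16, for counting error only). It passed the test (edgeR adjusted p = 0.000597).

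Levels between genes were compared per length, as approximate TPM from the longest transcript of each gene. In Sham the order of mean approximate TPM was *Cebpb* (49.4), *Cebpa* (20.0), *Spi1* (12.3), *Lyl1* (9.58), *Runx1* (3.38), *Ikzf1* (2.82), *Batf* (2.37), *Runx3* (0.682) and *Batf3* (0.388). Neighbours in this order did not overlap except *Runx1* (2.98 to 3.90) and *Ikzf1* (2.69 to 3.01). In injured *VEGFR3*fl/fl the C/EBPβ gene was again highest, at 238 approximate TPM, and *Spi1* came next at 168, above *Cebpa* at 101. The ranges of *Cebpb* (176 to 275) and *Spi1* (155 to 191) overlapped there. *Lyl1* (42.7) and *Runx1* (35.4) also overlapped, and *Ikzf1* (14.1) overlapped with *Batf* (16.7) above it and *Runx3* (11.6) below it, and *Batf3* stayed last at 2.05. In the libraries labelled *VEGFR3*iLECko, *Runx1* at 45.2 (41.8 to 49.0) stood above *Lyl1* at 24.2 (22.1 to 25.4) with no overlap, where in injured *VEGFR3*fl/fl the ranges overlapped.

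The injured groups were then compared with each other, which asks whether these genes depended on *VEGFR3* deletion in *Prox1*-expressing cells as far as the labels hold. *Lyl1* and *Cebpa* fell in the libraries labelled *VEGFR3*iLECko and the other 7 genes did not pass the test. Of all genes tested, 0.466% were called lower in this comparison and 0.573% higher. In 6 of the 9 genes all 3 libraries labelled *VEGFR3*iLECko lay below all 3 injured *VEGFR3*fl/fl libraries, which held for 14.3% of all genes tested. The 6 were *Spi1*, *Lyl1*, *Ikzf1*, *Cebpa*, *Batf* and *Batf3*. Over the 9 genes the median log2 difference was -0.34, against -0.01 over all genes.

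*Lyl1* was at 18.2, 16.8 and 15.3 CPM in the libraries labelled *VEGFR3*iLECko, against 38.3, 28.5 and 32.3 CPM in injured *VEGFR3*fl/fl. The groups were separated by more than their spread, and the log2 fold change was -0.98 (SE 0.12, 95% interval -1.25 to -0.70, edgeR adjusted p = 0.0214), which made the level 1.97-fold lower. By p-value *Lyl1* was number 9 among the genes that were lower. Without Sham replicate 3, injured *VEGFR3*iLECko replicate 1 or injured *VEGFR3*iLECko replicate 2 the adjusted p was 0.0562, 0.0604 and 0.109, and with a covariate for Y-linked expression it was 0.173.

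*Cebpa* was at 77.8, 58.6 and 61.4 CPM, against 133, 107 and 100 CPM. Again no library of one group reached the other, although the first library labelled *VEGFR3*iLECko was nearer to the injured *VEGFR3*fl/fl libraries than its other two. The log2 fold change was -0.78 (SE 0.13, 95% interval -1.08 to -0.48, edgeR adjusted p = 0.0384), or 1.72-fold lower. The call was lost without any one of Sham replicates 1 to 3 (adjusted p 0.0697, 0.0573 and 0.0755) or of injured *VEGFR3*iLECko replicates 1 to 3 (adjusted p 0.0607, 0.145 and 0.088). With the Y-linked covariate its adjusted p was 0.342. The third injured *VEGFR3*fl/fl library, with few Y-linked counts like the libraries labelled *VEGFR3*iLECko, had 32.3 CPM of *Lyl1* and 100 CPM of *Cebpa*, above each of those 3 libraries. Against this library alone, as an alternative chosen after seeing the data, the log2 fold changes were -0.94 for *Lyl1* (adjusted p = 0.0584) and -0.60 for *Cebpa* (adjusted p = 0.156), and neither gene was called, with the lone library assumed to vary like the other groups.

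**Figure D2:**
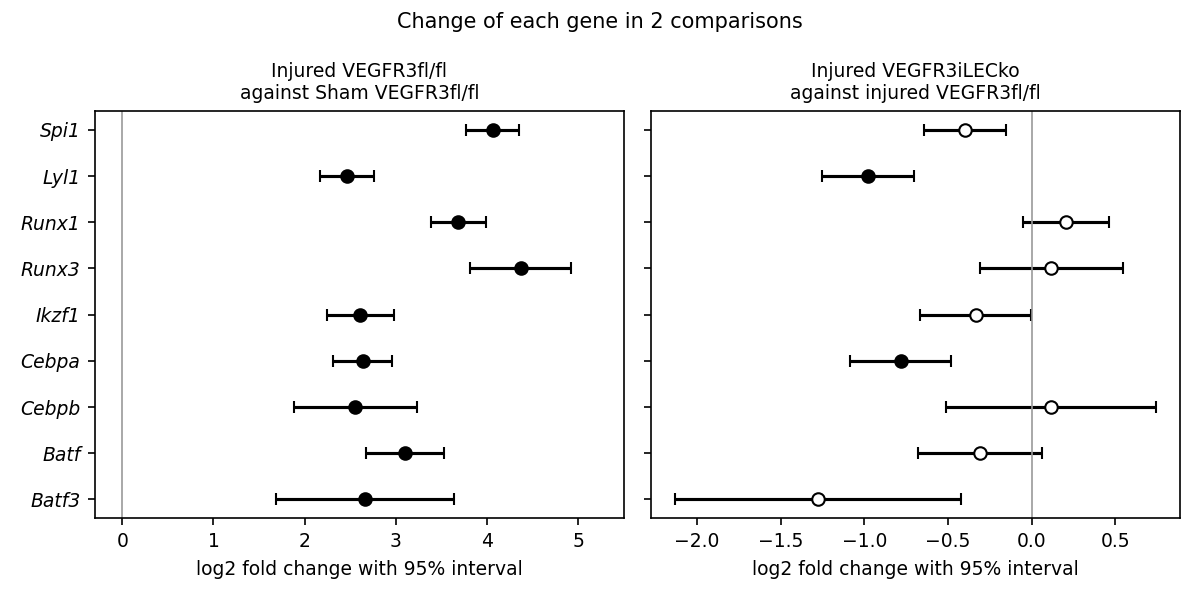
Log2 fold changes of the 9 genes with 95% intervals (horizontal axis) in injured VEGFR3fl/fl against Sham VEGFR3fl/fl (left) and in injured VEGFR3iLECko against injured VEGFR3fl/fl (right), with filled points for called genes. The axes differ in scale. All 9 points lie between 2.46 and 4.37 on the left, and on the right they lie between -1.28 and 0.20 with only Lyl1 and Cebpa filled.

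*Spi1* was at 113, 103 and 116 CPM in the libraries labelled *VEGFR3*iLECko, all below the injured *VEGFR3*fl/fl libraries. Its difference of -0.40 (95% interval -0.65 to -0.15, unadjusted p = 0.00537, edgeR adjusted p = 0.0848) was not called. *Batf3* had 5, 9 and 7 counts against 22, 14 and 14. Its difference of -1.28 was the largest of the 9 by size, but at these counts the interval ran from -2.13 to -0.42 and the adjusted p was 0.0998. *Ikzf1*, at 23.1, 24.9 and 25.3 CPM, differed by -0.34 (95% interval -0.67 to -0.003, adjusted p = 0.202). *Batf* lay at 5.14, 5.44 and 5.87 CPM, just under the lowest injured *VEGFR3*fl/fl library (-0.31, 95% interval -0.68 to 0.06, adjusted p = 0.268).

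Both RUNX genes and *Cebpb* overlapped between the injured groups. *Runx1*, at 114, 97.5 and 94.2 CPM, differed by 0.20 (95% interval -0.05 to 0.46, edgeR adjusted p = 0.289). For *Runx3*, at 25.8, 17.7 and 18.5 CPM, the difference was 0.12 (95% interval -0.31 to 0.55, adjusted p = 0.731). *Cebpb* was at 131, 182 and 179 CPM and differed by 0.11 (95% interval -0.51 to 0.74, adjusted p = 0.827). The upper bounds leave room for a rise of these 3 genes, and the lower bounds for a fall of *Runx3* and *Cebpb*.

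Against Sham, with which injured *VEGFR3*fl/fl was also compared, all 9 genes were higher in the libraries labelled *VEGFR3*iLECko, where 19.7% of all genes tested were called higher. Y-linked sums were 51.1 to 167 CPM in Sham and 0.736 to 1.11 CPM in those libraries. Sex therefore cannot be told apart from injury and label in this comparison. The log2 fold change was 3.67 for *Spi1*, 3.89 for *Runx1*, 4.49 for *Runx3*, 2.27 for *Ikzf1*, 2.67 for *Cebpb* and 2.79 for *Batf*. It was 1.48 for *Lyl1* (SE 0.13, edgeR adjusted p = 1.77e-05) and 1.85 for *Cebpa* (SE 0.14, adjusted p = 7.82e-06). *Batf3* had a ratio of summed counts of 2.69 (exact binomial 95% interval 1.15 to 7.03) and an adjusted p of 0.0307. That call held in 10 of 19 alternatives and was lost without any one of Sham replicates 1 to 3 (adjusted p 0.0673, 0.0617 and 0.103) or of injured *VEGFR3*iLECko replicates 2 and 3 (0.106 and 0.0708).

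The 9 genes were next set against *Ptprc*, the gene of CD45, a phosphatase on the surface of nearly all leukocytes, to give their levels within a library. Sham libraries had 7.40 to 8.05 CPM of *Ptprc*, injured *VEGFR3*fl/fl libraries 110 to 148 CPM and those labelled *VEGFR3*iLECko 94.3 to 155 CPM. It rose by 3.98 on the log2 scale with injury, and the injured groups differed by -0.03 (edgeR adjusted p = 0.943). All 9 genes of the pan-leukocyte list, *Ptprc* included, lay below 0 between the injured groups, with a median of -0.46. *Laptm5*, another of them, differed by -0.53 (edgeR adjusted p = 0.0669). A fall in a ratio to *Ptprc* there is therefore larger than it would be against *Laptm5*. Between Sham and injured *VEGFR3*fl/fl the ratio of *Spi1* to *Ptprc* overlapped. Its log2 ratios were -0.14, 0.38 and 0.19 in Sham and 0.41, 0.23 and 0.09 in injured *VEGFR3*fl/fl (difference 0.10, exact permutation p = 0.6). *Runx3* overlapped as well (difference 0.25, exact permutation p = 0.4). The other 7 genes had lower ratios in all 3 injured libraries than in any Sham library. The differences were -1.52 for *Lyl1*, -1.39 for *Ikzf1*, -1.33 for *Cebpa*, -1.32 for *Cebpb*, -1.01 for *Batf* and -0.28 for *Runx1*. That of *Batf3* was -1.92, but its Sham libraries had 3 counts or fewer. The prior count of 2, added before the log, raises its ratio there and enlarges this fall. In the fit, *Batf3* rose by 2.66 on the log2 scale and *Lyl1* by 2.46. Each of these 7 differences had an exact two-sided permutation p of 0.1, the smallest that 3 libraries against 3 allow. No ratio could therefore pass a threshold of 0.05. Of all genes tested, 96.1% had a log2 fold change below that of *Runx1*, which rose less than *Ptprc*. A lower ratio to *Ptprc* after injury was thus usual among all genes and not particular to these 7. The share of all genes without overlap in this ratio was not determined.

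Between the injured groups, the ratio of *Lyl1* to *Ptprc* lay at -1.55, -1.95 and -2.19 for injured *VEGFR3*fl/fl, against -2.37, -2.77 and -3.33 for the libraries labelled *VEGFR3*iLECko. These did not overlap (difference -0.92, exact permutation p = 0.1), and neither did those of *Batf3* (difference -1.04, exact permutation p = 0.1). The ratios of *Batf3* rest on 5, 9 and 7 counts against 22, 14 and 14, and the prior count weighs on them. The share of all genes with ratios separated in this way was not determined. For *Cebpa* the ratios of 0.24, -0.05 and -0.56 and of -0.28, -0.97 and -1.34 overlapped (difference -0.74, exact permutation p = 0.2). The other 6 genes overlapped, with differences between -0.35 and 0.25. In all, 18 such ratios were compared. With *Laptm5*, another leukocyte gene, as the reference, the difference of *Spi1* after injury was -0.165 and that of *Runx3* was -0.016, so that the sign of these small differences depended on the reference.

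**Figure D3:**
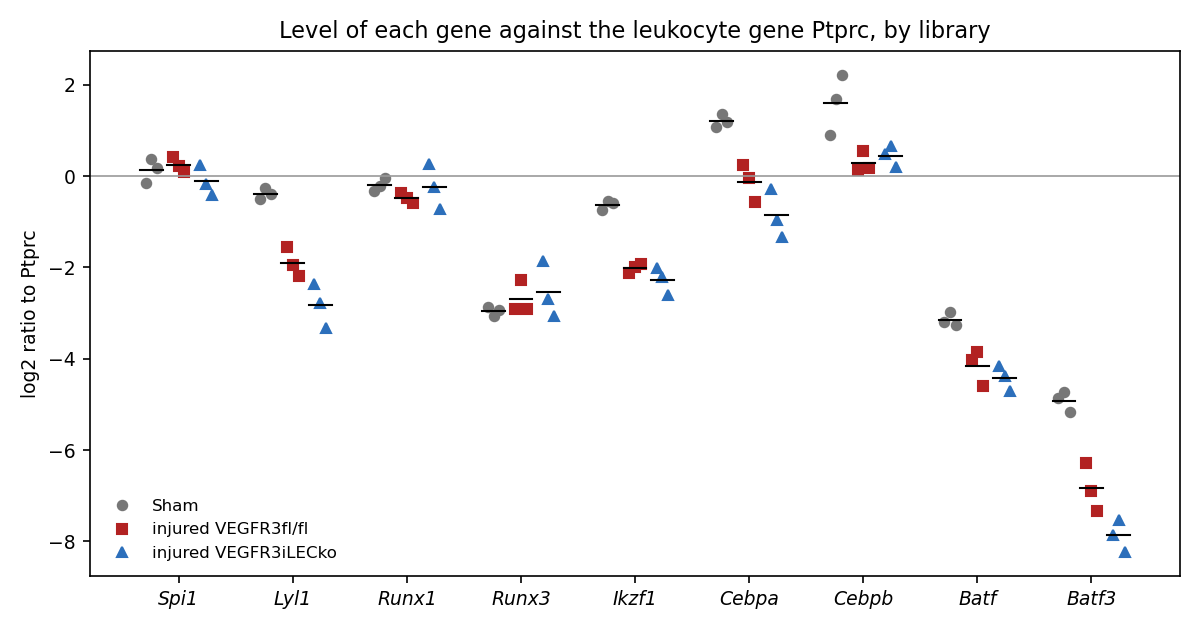
Log2 ratio of each of the 9 genes to the leukocyte gene Ptprc (vertical axis) in each library, with a point per library and a black bar at the mean of 3 for Sham (grey circles), injured VEGFR3fl/fl (red squares) and injured VEGFR3iLECko (blue triangles). Spi1 stays near the line at 0 in all groups, while Lyl1 falls from a mean of -0.38 in Sham to -1.90 in injured VEGFR3fl/fl and -2.82 in injured VEGFR3iLECko.

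Most markers of these leukocyte types rose after injury as well, while between the injured groups the lists differed in direction. The 9 pan-leukocyte markers summed to 142 to 156 CPM in each Sham library, to 2150 to 2390 CPM in those of injured *VEGFR3*fl/fl and to 1610 to 1690 CPM where the label was *VEGFR3*iLECko. All 9 rose after injury, and between the injured groups *Arhgdib* fell. The 11 macrophage markers, with sums of 413 to 423, 3320 to 3670 and 2040 to 2360 CPM, were higher after injury in 10 of 11. Between the injured groups 6 of these 11 fell, namely *Adgre1*, *C1qa*, *C1qb*, *C1qc*, *Cx3cr1* and *Fcgr1*, by 0.60 to 1.03 on the log2 scale, and the median of -0.62 over all 11 lay below that of all genes (-0.01). Of these 6 calls only that of *Fcgr1* held with the Y-linked covariate (adjusted p = 0.0305, against 0.183 to 0.405 for the other 5), and 0 held in a fit of the 6 injured libraries alone or without injured *VEGFR3*iLECko replicate 2. Only 1 held without Sham replicate 3, injured *VEGFR3*iLECko replicate 1 or injured *VEGFR3*iLECko replicate 3, and 2 held without Sham replicate 1. *Arhgdib* was called in 10 of 22 alternatives. The 5 monocyte markers summed to 10.6 to 11.9, 127 to 307 and 178 to 289 CPM, all 5 rose after injury, and *Cd14*, a receptor for bacterial lipopolysaccharide, was higher in the libraries labelled *VEGFR3*iLECko (105 against 57.8 CPM, log2 fold change 0.86, edgeR adjusted p = 0.0407, called in 9 of 22 alternatives). The neutrophil markers summed to 4.43 to 6.03 CPM in each Sham library and, in the same order of groups, to 182 to 557 and 414 to 1360 CPM, which overlapped. Of 8 tested, 6 rose after injury. All 8 had log2 fold changes above 0 between the injured groups, with a median of 1.35, and 0 were called. The part of these cell types in the fall of *Lyl1* and *Cebpa* was not tested.

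Markers of other tissue cells also moved with injury. The 6 blood endothelium markers summed to 348 to 381 CPM in each Sham library and to 1070 to 1170 CPM in those of injured *VEGFR3*fl/fl, with 5 called higher, and the 6 fibroblast markers to 3800 to 4370 and 15500 to 22500 CPM, with 4 called higher. Iris pigment cell markers summed to 27200 to 29100 and 3320 to 5740 CPM, with 5 of 5 called lower, and iris muscle markers to 6400 to 8290 and 1140 to 2430 CPM, with 3 of 5 called lower. The share of all genes called lower after injury is not given here. Of these lists 0 genes were called between the injured groups. *Runx1* and *Lyl1* are known from endothelium as well as from blood cells, and the part of these cells in the rise of the 9 genes was not tested.

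**Figure D4:**
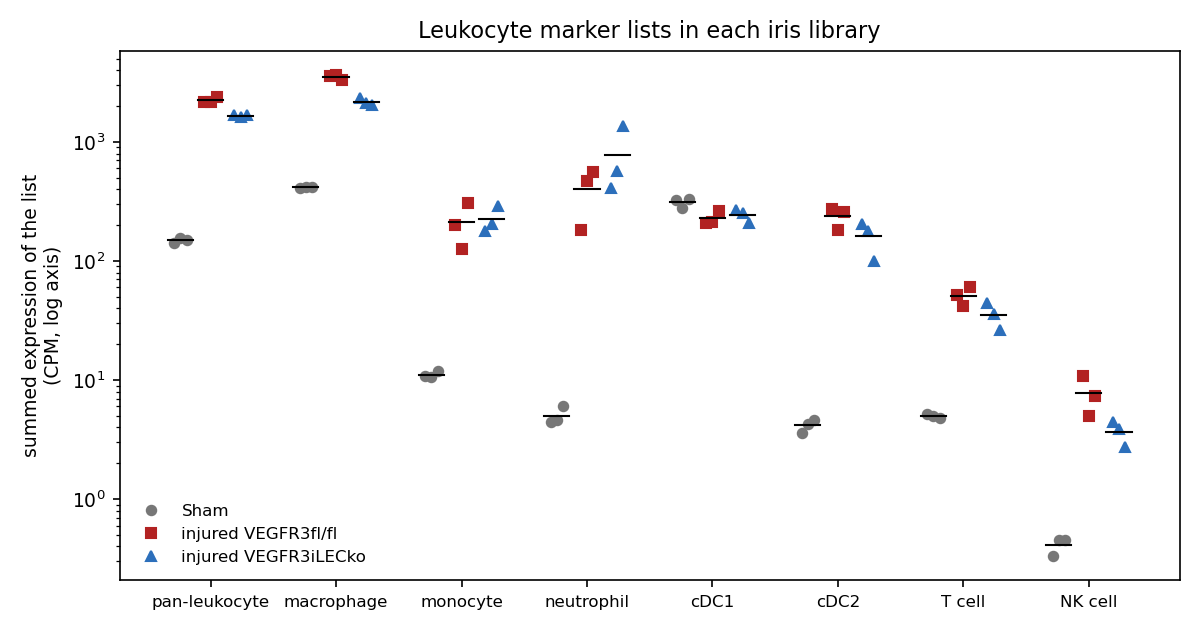
Summed expression (CPM, log axis) of 8 leukocyte marker lists in each library, with a point per library and a black bar at the mean of 3 for Sham (grey circles), injured VEGFR3fl/fl (red squares) and injured VEGFR3iLECko (blue triangles). The macrophage sum lies at 2040 to 2360 CPM in the libraries labelled VEGFR3iLECko, below the 3320 to 3670 CPM of injured VEGFR3fl/fl, whereas the neutrophil sums of these groups overlap.

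Markers of lymphocytes and dendritic cells, in which *Runx3*, *Ikzf1*, *Batf* and *Batf3* are best known, rose after injury as well. T cell markers summed to 4.79 to 5.15 CPM in each Sham library, and to 41.6 to 60.7 CPM and 26.1 to 44.5 CPM in the injured *VEGFR3*fl/fl and *VEGFR3*iLECko groups. All 9 were higher after injury and 0 were called between the injured groups. NK cell markers summed to at most 10.9 CPM in any library. The 6 B and plasma cell markers summed to 1.69 to 2.27 CPM in each Sham library. In injured *VEGFR3*fl/fl their sums were 38.2, 7.43 and 4.65 CPM, and 4.79, 19.7 and 3.28 CPM where the label was *VEGFR3*iLECko. Of 3 tested, 2 rose after injury and 0 were called between the injured groups. The 4 cDC2 markers summed to 3.60 to 4.62 CPM in each Sham library and to 184 to 273 and 100 to 206 CPM in the injured groups, and all 4 rose. Of the 7 cDC1 markers 5 rose after injury and 1 fell, with a median log2 fold change of 2.21. *Xcr1* and *Clec9a*, which define that type, went from 0.131 and 0.636 CPM in Sham to 0.892 and 2.96 CPM in injured *VEGFR3*fl/fl, and were at 0.443 and 3.01 CPM where the label was *VEGFR3*iLECko. *Itgae* (0.131 to 4.32 CPM), *Wdfy4* (2.35 to 38.5 CPM) and *Naaa* (31.1 to 78.1 CPM) rose with them, *Tlr3* (20.9 and 23.7 CPM) was not called, and the most expressed gene of the list, *Cadm1*, fell (258 to 80.0 CPM). *Cadm1* was most of the sum in Sham, and the list summed to 280 to 335 CPM there and to 209 to 263 CPM in injured *VEGFR3*fl/fl. Of the cDC1 and cDC2 markers 0 were called between the injured groups. The 3 adipocyte markers measured had at most 2 counts in any library. The share of each cell type in the rise of *Runx3*, *Ikzf1*, *Batf* and *Batf3* was not tested.

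Relatives of the 9 genes and known partners were less uniform after injury. Of 10 ETS relatives of PU.1, 9 rose and 0 fell, with *Ets1* at 49.4 ± 2.23 CPM in Sham and 102 ± 11.7 CPM in injured *VEGFR3*fl/fl (SD, n = 3) and *Elk3* at 62.2 ± 3.44 and 156 ± 11.3 CPM. Among 5 RUNX relatives and cofactors, *Cbfb*, the obligate partner of RUNX proteins, rose from 26.2 ± 1.61 to 70.4 ± 11.0 CPM, and *Runx2* rose as well. *Cbfa2t2* was at 33.5 CPM in Sham and 24.6 CPM after injury (edgeR adjusted p = 0.0018), a change under 1.5-fold, and was not called. Of the 4 Ikaros relatives *Ikzf3* rose and *Ikzf4* fell, by 2.18 on the log2 scale, from 47.5 ± 7.94 to 10.5 ± 1.26 CPM, while *Ikzf5* was at 23.7 and 22.4 CPM. *Cebpd* and *Cebpg*, of 3 C/EBP relatives tested, rose by 1.17 and 1.06 on the log2 scale. LYL1 relatives and partners had 1 called of 7 tested, *Tal1*. *Ldb1* (219 CPM in Sham and 187 CPM after injury, edgeR adjusted p = 0.0248) and *Tcf4* (201 and 275 CPM, adjusted p = 0.0297) changed less than 1.5-fold and were not called. *Runx2*, *Ikzf3* and *Tal1* were singled out after their values were seen.

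Between the injured groups, 0 of the ETS, RUNX, Ikaros, C/EBP and LYL1 relatives were called. Among 6 relatives and partners of BATF, *Junb* and *Irf8* rose after injury, and *Jund* (301 and 261 CPM) was not called. *Irf8*, a factor of monocytes and dendritic cells that pairs with PU.1 and with BATF3, rose from 6.75 ± 0.63 CPM to 72.3 ± 4.97 CPM with injury. It was at 42.8 ± 3.46 CPM (SD, n = 3) where the label was *VEGFR3*iLECko, and fell between the injured groups by 0.76 on the log2 scale (edgeR adjusted p = 0.0214). Of 18 other myeloid transcription factors tested, 8 rose after injury. Besides *Irf8*, *Irf5* fell between the injured groups (-0.64, adjusted p = 0.0214) and *Nr4a1*, an immediate early gene, rose (1.40, adjusted p = 0.048). These calls of *Irf8*, *Irf5* and *Nr4a1* held in 17, 15 and 8 of 22 alternatives, and with the Y-linked covariate the adjusted p was 0.173, 0.173 and 0.434. The most expressed of this list, *Bhlhe40* (422, 332 and 480 CPM in the 3 groups) and *Bhlhe41* (242, 178 and 178 CPM), were not called. *Bhlhe41* differed from Sham by less than 1.5-fold in injured *VEGFR3*fl/fl (edgeR adjusted p = 0.00228) and where the label was *VEGFR3*iLECko (0.00267).

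Genes known as targets of these factors were counted as well. All 17 PU.1 targets tested rose after injury, with a median log2 fold change of 4.14. *Lyz2*, lysozyme, went from 141 ± 4.13 to 13100 ± 4280 CPM, and *Cd68*, a lysosomal protein of macrophages, from 41.1 ± 4.83 to 669 ± 106 CPM (SD, n = 3). Between the injured groups, *Fcgr1* and *Adgre1* fell (-1.03, edgeR adjusted p = 0.00861, and -0.60, adjusted p = 0.0278) and the other 15 PU.1 targets were not called, *Lyz2* at 7300 ± 997 CPM among them. Their median was -0.50. C/EBP targets rose in 11 of 11 tested, including *Csf3r*, the receptor of granulocyte colony-stimulating factor, from 3.74 ± 0.53 to 210 ± 122 CPM. One of them, *Il6*, a cytokine, was higher in the libraries labelled *VEGFR3*iLECko (15.2 ± 1.09 CPM) than in injured *VEGFR3*fl/fl (2.47 ± 1.22 CPM), with an adjusted p of 0.0263 (0.259 with the Y-linked covariate, called in 13 of 22 alternatives). Genes that several factors control stand in more than 1 list, and the PU.1 and macrophage lists share *Adgre1*, *Csf1r*, *Cd68* and *Fcgr1*.

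Genes of the cytotoxic program that RUNX3 is known for were low throughout. All 5 tested rose after injury, with *Gzmb*, a granzyme, at 0.188 ± 0.118 CPM in Sham and 3.02 ± 1.13 CPM in injured *VEGFR3*fl/fl and *Ccl5*, a chemokine, at 0.280 ± 0.109 and 5.33 ± 3.28 CPM (SD, n = 3). *Prf1* and *Ifng* were below the filter, with at most 12 counts and 1 count in a library. After injury 22.1% of all genes tested were called higher, and the share called lower is not given here. Of 11 lymphoid transcription factors tested, 5 rose and 4 fell after injury and 0 were called between the injured groups. The most expressed of them, *Zbtb7b* (47.4 and 59.9 CPM, edgeR adjusted p = 0.0176) and *Bcl6* (44.1 and 42.2 CPM, adjusted p = 0.855), were not called after injury. *Zbtb7b* changed less than 1.5-fold.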

How the data were processed

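Iris RNA was sequenced in 9 libraries by the authors as single-end reads of 50 bases and aligned with HISAT2 2.0.4 and Bowtie2 2.2.5, with mm10 as the build in the submitters' processing notes. The deposited values are estimated counts per gene, not normalized. A combined table with identical values and group averages was not used. Groups came from the titles. The genotype tags of 2 libraries labelled *VEGFR3*iLECko name another VEGFR number, and their titles and descriptions were followed. The 9 genes, the gene lists and the tests were chosen with earlier results of these data known.

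Counts were rounded, filtered by filterByExpr (15010 of 18349 genes) and normalized by TMM, with factors between 0.90 and 1.09, in edgeR 4.0.16 (R 4.3.3). A single fit held all 9 libraries with group as its term, and edgeR's quasi-likelihood test was adjusted by the Benjamini-Hochberg method over all genes tested. Standard errors came from the F statistic. Log2 ratios to *Ptprc* used a prior count of 2. Approximate TPM used the longest GENCODE M21 transcript, available for 96.2% of genes. Of each list, the 2 tested genes with the highest mean CPM and any gene called between the injured groups were named. Replicates differed by more than counting noise, with a chi-square per degree of freedom of 5.13 to 76.2. Procedures were tested on simulated data. Alternatives included other normalizations, filters and thresholds, DESeq2 1.42.0, a block for the replicate number and the omission of single libraries. The proteins were not analysed here.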

Additional observations from a re-analysis of the deposited data

How the results depend on the processing

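All 9 genes were called higher in injured *VEGFR3*fl/fl against Sham under every alternative that tested them (8 with a filter of 1 CPM in 3 libraries, which removes *Batf3*), and no direction turned in either comparison with Sham. In injured *VEGFR3*iLECko against Sham, *Batf3* was called in 10 of 19 alternatives, with adjusted p from 0.0299 to 0.109. Beside the omission of single libraries, DESeq2 (0.109), the replicate block (0.0574), the Y-linked covariate (0.0932) and an adjusted p under 0.01 lost that call. Calls between the injured groups depended on the processing, and the causes were not tested. *Lyl1* was called in 15 of 22 alternatives, with log2 fold changes from -1.07 to -0.85, and *Cebpa* in 11 of 22, from -0.92 to -0.59. In that comparison 86 genes were called higher and 70 lower, of which 2 were among the 9. DESeq2 called 349 and 281. Library size alone gave 41 lower. A fit of only the 6 injured libraries called 0 and 0 (487 and 392 at an unadjusted p under 0.05), a Y-linked covariate 0 and 2 (318 and 326), an adjusted p under 0.01 gave 0 and 1 (565 and 493), and each of these called 0 of the 9. Without the first 2 injured *VEGFR3*fl/fl libraries, chosen after seeing the data, 2 and 10 genes and 0 of the 9 were called. Leaving out each library gave 0 to 174 genes higher, 0 to 149 lower and 0 to 2 of the 9. Same-numbered libraries had correlations of -0.387 to 0.131, so the numbers do not pair them, and the replicate block called 11 higher, 13 lower and 1 of the 9, *Lyl1*. With no fold threshold, 112 genes were lower there, 4269 in injured *VEGFR3*fl/fl against Sham and 3953 in injured *VEGFR3*iLECko against Sham.

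Differences that were not called changed sign in some settings. Between the injured groups, *Runx3* lay between -0.073 and 0.266 when single libraries were left out, below 0 without injured *VEGFR3*fl/fl replicate 1 or injured *VEGFR3*iLECko replicate 1. *Cebpb* lay between -0.007 and 0.251, below 0 without injured *VEGFR3*fl/fl replicate 1, and became -0.027 without the first 2 libraries of that group. With *Laptm5* as the reference in place of *Ptprc*, the ratio of *Spi1* differed by -0.165 and that of *Runx3* by -0.016 after injury, and between the injured groups *Spi1* gave 0.153, *Ikzf1* 0.238 and *Batf* 0.249. The pan-leukocyte list as the reference gave 0.037, 0.121 and 0.132 for these 3. Leaving out each library gave -0.039 to 0.223 for the ratio of *Spi1* after injury and, between the injured groups, -0.001 to 0.495 for *Runx1* and -0.175 to 0.422 for *Runx3*. Counts of 9 or fewer in a library limit what can be said of *Batf3*.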

Other observations

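The genes whose level over the 9 libraries was most like that of each of the 9 factors were taken from 14214 tested genes with a mean of at least 1 CPM, by Pearson's r of log2 CPM. These correlations are descriptions. The 9 libraries share 3 treatment groups, and Sham lies apart from the injured libraries, so a high r holds for many genes that rose after injury. *Spi1* was nearest to *Fcgr4*, an activating Fc receptor (r = 0.999, with means of 2.10, 60.8 and 43.7 CPM in Sham and in the injured *VEGFR3*fl/fl and *VEGFR3*iLECko groups), followed by *Fxyd5* and *Wipf1*. *Lyl1* was nearest to *Lamp1*, a lysosomal membrane protein (r = 0.996, with 739, 1320 and 1070 CPM), then to *Mical1* and *Ptpro*. For *Cebpa* the nearest gene was *Ly86*, which encodes the partner of a Toll-like receptor relative on B cells and macrophages (r = 0.998, with 8.43, 79.3 and 38.0 CPM), followed by *Unc93b1*, which carries endosomal Toll-like receptors, and *Sh3bgrl3*.

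*Runx1* was nearest to *Aplnr*, the apelin receptor (r = 0.998, with 1.51, 106 and 101 CPM), *Kcnj15* and *Cd300lf*. *Runx3* was nearest to *Bcl3*, *Tgif1* and *Pmepa1* (each r = 0.997). *Ikzf1* was nearest to *Evi2b* (r = 0.998), *Aoah* and *Ltb*, and *Batf* to *Anxa3*, *Lpcat2* and *Galnt6* (each r = 0.999). The nearest genes of *Cebpb* were less close, with *Trpm2* at r = 0.991, *Sema6b* and *AA467197*. The nearest to *Batf3* were *Ccdc58* and *Stard9*, both at r = 0.981, and *Arrdc1*, and with so few counts of *Batf3* this order carries little.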
